A study of Homo sapiens with 6 samples.

Results

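The genes described here are 48 genes of the G2 and M phases of the cell cycle, which encode the switch into mitosis, the kinetochore, the spindle and its checkpoint, anaphase onset and cytokinesis. They were taken as a list of symbols and matched by Entrez Gene ID to the deposited expression table. The matching made no use of their values, but the list was chosen with earlier results of these data known. All 48 were found among 18795 genes of the table, and all 48 reached the minimum for testing, a mean of 1 FPKM over the libraries (6), as did 12454 genes in all. FPKM is a count of sequenced fragments scaled to transcript length and library size, so that levels of different genes can be set side by side.

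The study sequenced RNA from HCC70 and MDA-MB-468, established human lines of basal-like breast cancer that were grown untreated in medium with serum. Methanol-fixed cells of each line were stained with antibodies, and the sort took cells positive for keratin 18 (K18+), for keratin 18 and keratin 14 (K18+K14+), or for keratin 18 and vimentin (K18+Vim+). Keratin 18 is typical of luminal epithelium, keratin 14 of basal epithelium and vimentin of mesenchymal cells. Each population gave 1 library from each line, so that n = 2 per population, with the lines as the only replicates. The p-values below measure how far these lines disagree, not the spread between cultures. The series title asks about symmetric and asymmetric division, and the labels do not say whether the sorted cells were in cycle.

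A cell enters mitosis when cyclin B and CDK1, activated by CDC25 phosphatases, phosphorylate many proteins. Chromosomes then attach to spindle microtubules through kinetochores, which are built on centromeric chromatin marked by CENPA, and the spindle checkpoint holds back the APC/C ubiquitin ligase until every kinetochore is attached. The APC/C with CDC20 then destroys securin and cyclin B, sister chromatids part, and the midzone and contractile ring divide the cell. Most of these genes are transcribed late in the cycle through the MuvB complex, which joins MYBL2 and FOXM1 and binds the cell cycle homology region (CHR, letters TTTGAA or TTTAAA), often beside CCAAT boxes bound by NF-Y. In breast cancer the level of such genes, MKI67 among them, is used as a measure of proliferation.

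The promoters are shown first because these letters are what many of the 48 genes have in common beside their function. The RefSeq promoter table (GRCh38.p14, 250 bases before to 50 after the start) held 41 of the 48 genes. TTTGAA was present on either strand in 30 of 41, or 73.2%, against 15.4% of all 27305 promoters of the table and 9.54% of the 10204 promoters of tested genes. TTTAAA, which reads the same on both strands, was present in 14 of 41 (34.1%) against 12.4% and 7.35%, and CCAAT in 31 (75.6%) against 35.7% and 36.8%. TTTGAA and CCAAT occurred together in 25 (61.0%) against 6.08% and 4.06%. Below are the 130 bases before the start of 5 genes that recur in the results. Capitals mark the CHR letters on either strand and the CCAAT box, the latter also where it is written as its reverse complement ATTGG.
CCNB2, chr15:59105016-59105145, plus strand: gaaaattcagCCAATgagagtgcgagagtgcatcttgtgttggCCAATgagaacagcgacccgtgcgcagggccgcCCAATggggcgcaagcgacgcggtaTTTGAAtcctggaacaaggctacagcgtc
PLK1, chr16:23678759-23678888, plus strand: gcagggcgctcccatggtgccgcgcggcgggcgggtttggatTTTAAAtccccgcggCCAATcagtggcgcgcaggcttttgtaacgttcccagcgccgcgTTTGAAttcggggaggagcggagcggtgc
HMMR, chr5:163460502-163460631, plus strand: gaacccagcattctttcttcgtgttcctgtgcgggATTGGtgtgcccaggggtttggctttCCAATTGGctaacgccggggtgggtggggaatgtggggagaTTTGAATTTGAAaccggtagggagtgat
CENPE, chr4:103198344-103198473, minus strand: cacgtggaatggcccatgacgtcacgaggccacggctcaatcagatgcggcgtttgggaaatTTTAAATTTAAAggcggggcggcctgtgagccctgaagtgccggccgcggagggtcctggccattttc
TACC3, chr4:1720501-1720630, plus strand: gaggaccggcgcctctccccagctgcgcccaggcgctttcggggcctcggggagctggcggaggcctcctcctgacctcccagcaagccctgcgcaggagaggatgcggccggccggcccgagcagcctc
The first TTTGAA base lies 29 bases before the start in CCNB2 and in PLK1, and at 28 and 22 bases in HMMR. CENPE has copies of TTTAAA at 68 and 62 bases and no CCAAT in the 300 bases searched, and none of the letters were found in the window of TACC3. A match is a description of letters and says nothing of binding in these cells.

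Before the comparisons, 2 libraries have to be set apart. The MDA-MB-468 library labelled K18+Vim+ went against its label in genes that mark this line. SMAD4 and RB1, which MDA-MB-468 has lost, stood at 5.19 and 6.68 FPKM there, where the other MDA-MB-468 libraries had at most 0.566 and 0.307 FPKM, and the amplified EGFR at 10.4 against 70.7 FPKM or more. All 7 luminal markers were lower there than in K18+ (sum 309 against 4030 FPKM) and 5 of 6 mesenchymal markers higher (sum 296 against 38.8 FPKM), FN1 being lower. The MDA-MB-468 K18+K14+ library had a summed FPKM of 765160, against 489710 to 563280 in the others. Over the 6 libraries the sums of fibroblast (4.09 to 9.82 FPKM), leukocyte (1.97 to 7.96 FPKM) and endothelial markers (0.4 to 1.47 FPKM) were low, and PECAM1 was at the file's floor of 0.1 FPKM in all. The number of reads is unknown, so no counting error can be given.

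The 48 genes were expressed above the middle of the transcriptome in every library. Their median lay at 25.8, 25.9 and 18.9 FPKM in the HCC70 K18+, K18+K14+ and K18+Vim+ libraries, where the median of all tested genes was 11.8, 9.99 and 10.0 FPKM. In the MDA-MB-468 libraries it lay at 31.2, 15.5 and 24.5 FPKM, against 10.6, 8.12 and 9.53 FPKM. The MDA-MB-468 K18+K14+ library had the lowest median and also the widest range, from 0.695 FPKM for CENPE to 348 FPKM for UBE2C. Between 30 and 41 of the 48 genes stood above the median of all genes. The genes took 0.280% to 0.346% of the summed FPKM in HCC70 and 0.322% to 0.50% in the MDA-MB-468 libraries. Averaged over the 6 libraries, CDC20 (198 FPKM), UBE2C (173 FPKM), PTTG1 (146 FPKM) and CKS2 (122 FPKM) led, and KIF20B (3.0 FPKM), KIF14 (3.32 FPKM) and CENPE (4.84 FPKM) were lowest.

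**Figure D1:**
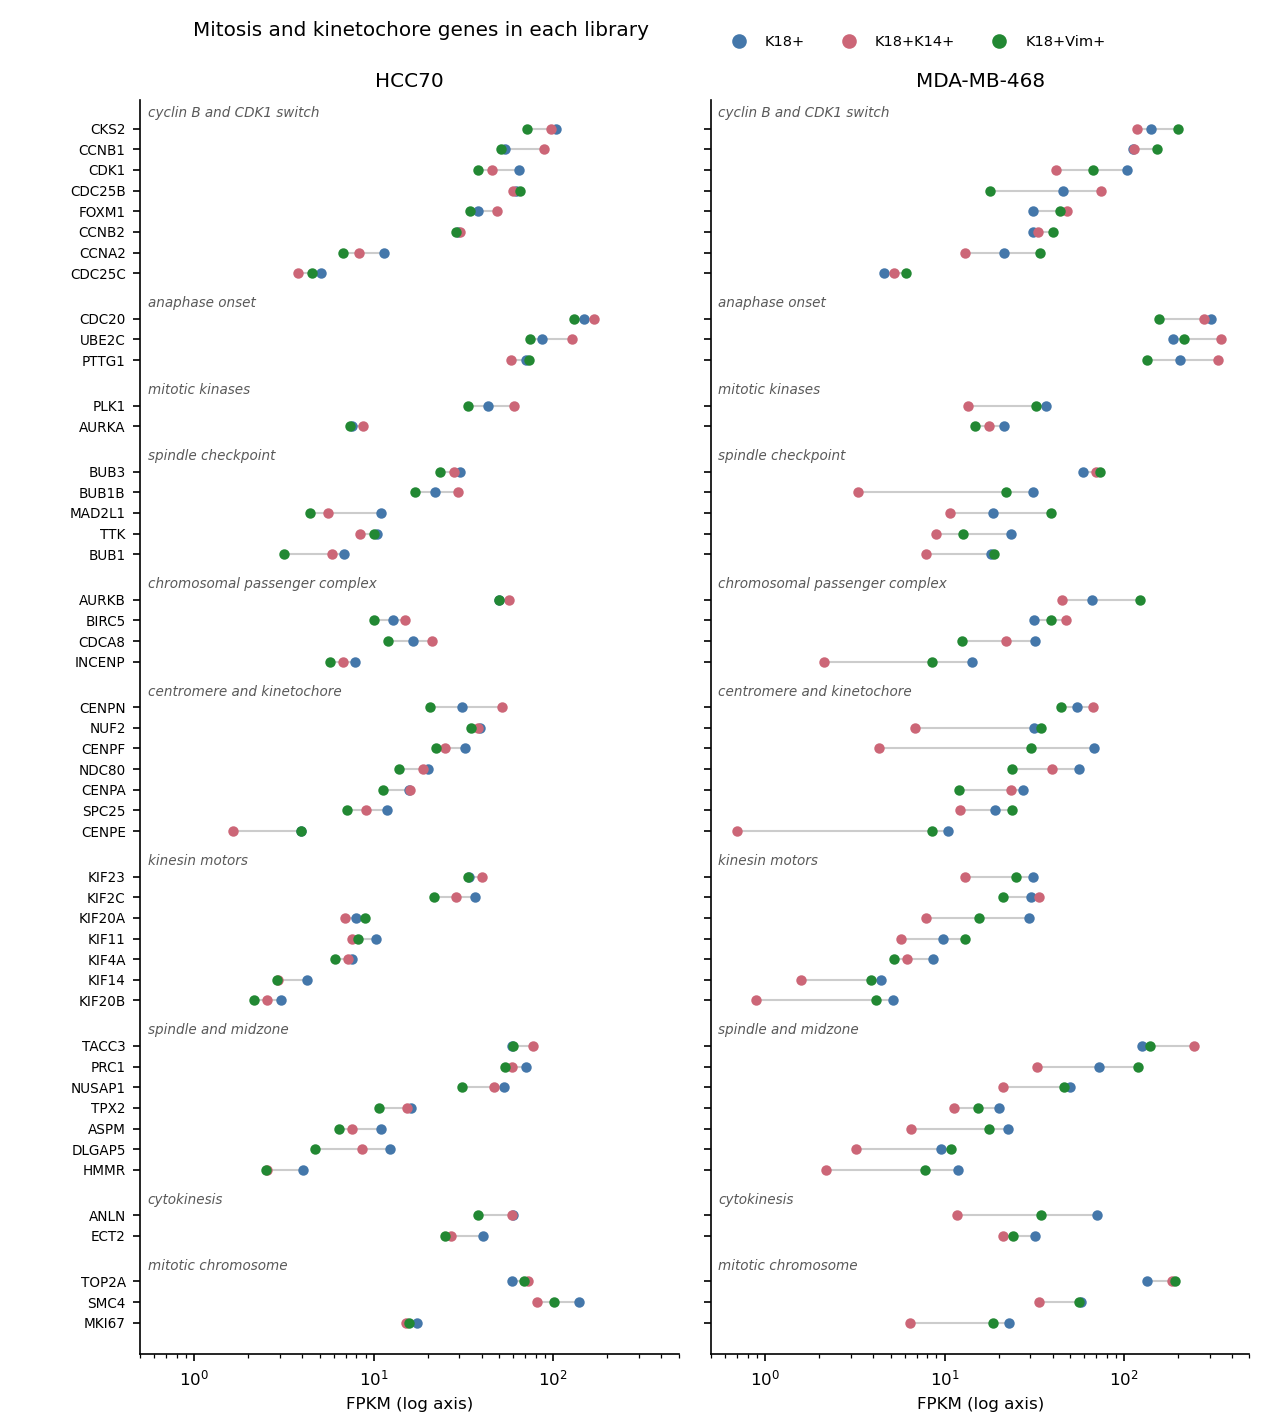
FPKM (log axis) of the 48 genes by role in HCC70 (left) and MDA-MB-468 (right), where each point is 1 library and the grey line joins the lowest and the highest of the line; K18+Vim+ on the right is the library so labelled. The K18+K14+ points of MDA-MB-468 spread from 0.695 FPKM (CENPE) to 348 FPKM (UBE2C).

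Below, values in a sentence stand in the order K18+, K18+K14+, K18+Vim+, and the last of MDA-MB-468 is always the MDA-MB-468 library labelled K18+Vim+. Among genes of the mitotic switch, CDK1, the kinase itself, stood at 64.2, 45.6 and 37.9 FPKM in HCC70 and 104, 41.6 and 67.5 FPKM in MDA-MB-468. Its partner cyclin B1 (CCNB1) stood at 54.1, 89.0 and 51.5 FPKM and 112, 113 and 153 FPKM. K18+ was thus the highest of both lines for the kinase, while the highest cyclin B1 was in K18+K14+ of HCC70 and in the MDA-MB-468 library labelled K18+Vim+. FOXM1, the transcription factor of these genes, stood at 38.2, 48.4 and 34.4 FPKM and 31.1, 47.9 and 43.7 FPKM, and was lowest in K18+ in MDA-MB-468 and in K18+Vim+ in HCC70. Cyclin B2 (CCNB2) varied least of this group, from 28.7 to 30.2 FPKM in HCC70 and from 31.3 to 40.1 FPKM in MDA-MB-468. CDC25B, a phosphatase that activates CDK1, stood at 62.0, 59.6 and 65.4 FPKM and 45.4, 74.1 and 18.0 FPKM, the last being far below the others. Cyclin A2 (CCNA2), the CDK-binding protein CKS2 and the phosphatase CDC25C ranged from 6.77 to 33.8, 71.8 to 201 and 3.77 to 6.07 FPKM over the 6 libraries.

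The genes of anaphase onset were the most abundant. CDC20, the APC/C activator that the checkpoint restrains, stood at 148, 169 and 130.02 FPKM in HCC70 and 305, 281 and 157 FPKM in MDA-MB-468. UBE2C, the ubiquitin-conjugating enzyme of the APC/C, stood at 87.0, 128 and 74.1 FPKM and 188, 348 and 215 FPKM, with K18+K14+ highest in both lines and all MDA-MB-468 libraries above all HCC70 libraries. Securin (PTTG1), which inhibits separase, stood at 70.4, 58.1 and 73.4 FPKM and 206, 332 and 135 FPKM. It has near-identical copies in the genome (PTTG2 and PTTG3P), so its values are uncertain. Of the mitotic kinases, PLK1 stood at 43.5, 60.6 and 33.5 FPKM and 36.7, 13.5 and 32.5 FPKM, highest in K18+K14+ in HCC70 and lowest there in MDA-MB-468. Aurora A (AURKA), the spindle pole kinase, stood at 7.59, 8.68 and 7.35 FPKM and 21.4, 17.6 and 14.8 FPKM, and the lines did not overlap.

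The checkpoint genes differed in which library was low. MAD2L1, which binds and blocks CDC20, stood at 11.0, 5.58 and 4.43 FPKM in HCC70 and 18.5, 10.7 and 39.3 FPKM in MDA-MB-468. The kinase BUB1 stood at 6.81, 5.87 and 3.17 FPKM and 18.1, 7.84 and 18.8 FPKM. BUBR1 (BUB1B), another inhibitor of CDC20, stood at 22.1, 29.5 and 17.1 FPKM and 31.0, 3.29 and 22.0 FPKM, where the MDA-MB-468 K18+K14+ value was the lowest and the HCC70 K18+K14+ value the highest of its line. The kinase TTK, which starts the checkpoint signal, ranged from 8.40 to 23.4 FPKM over the 6 libraries. BUB3, a binding partner of BUB1 and BUBR1, ranged from 23.5 to 73.0 FPKM, and its HCC70 libraries all lay below its MDA-MB-468 libraries. In the chromosomal passenger complex, which corrects faulty attachments, the kinase Aurora B (AURKB) stood at 49.9, 56.7 and 50.2 FPKM and 66.6, 45.3 and 123 FPKM. Survivin (BIRC5), which brings the complex to the centromere, stood at 12.9, 14.8 and 9.99 FPKM and 31.7, 47.6 and 39.3 FPKM, every MDA-MB-468 library being above every HCC70 library. Borealin (CDCA8) ranged from 11.9 to 31.7 FPKM, and the scaffold INCENP from 2.13 FPKM in MDA-MB-468 K18+K14+ to 14.2 FPKM in MDA-MB-468 K18+.

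At the kinetochore, CENPA, the histone variant of the centromere, stood at 15.7, 15.9 and 11.2 FPKM in HCC70 and 27.5, 23.4 and 12.0 FPKM in MDA-MB-468. CENPE, the kinetochore motor that moves chromosomes to the spindle equator, stood at 3.91, 1.64 and 3.92 FPKM and 10.4, 0.695 and 8.49 FPKM. CENPF, a large protein of the outer kinetochore, stood at 32.4, 24.9 and 22.1 FPKM and 67.9, 4.29 and 30.4 FPKM. K18+K14+ was lowest for CENPE in both lines and for CENPF in MDA-MB-468 alone. NDC80, which binds microtubules, stood at 20.1, 18.7 and 13.9 FPKM and 55.8, 39.7 and 23.6 FPKM, and in both lines K18+Vim+ was lowest. CENPN, which recognizes CENPA nucleosomes, ranged from 20.7 to 67.3 FPKM.

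The kinesin motors and spindle proteins shared no single order of the libraries. KIF11, the motor that pushes spindle poles apart, stood at 10.2, 7.54 and 8.12 FPKM in HCC70 and 9.86, 5.74 and 13.0 FPKM in MDA-MB-468. KIF20A, a midzone motor, stood at 7.96, 6.88 and 8.94 FPKM and 29.7, 7.88 and 15.6 FPKM, highest in K18+Vim+ in HCC70 and in K18+ in MDA-MB-468. The other kinesins ranged over the 6 libraries from 0.889 to 5.18 FPKM (KIF20B), 1.58 to 4.41 FPKM (KIF14), 5.23 to 8.63 FPKM (KIF4A), 13.0 to 39.99 FPKM (KIF23) and 21.0 to 36.5 FPKM (KIF2C). TPX2, which activates Aurora A, stood at 16.2, 15.3 and 10.7 FPKM and 20.02, 11.3 and 15.4 FPKM, with K18+ highest in both lines. PRC1, which bundles midzone microtubules, stood at 70.9, 58.9 and 54.1 FPKM and 72.5, 32.5 and 119 FPKM, highest in K18+ in HCC70 and in the MDA-MB-468 library labelled K18+Vim+. HMMR, a spindle protein, stood at 4.04, 2.53 and 2.51 FPKM and 11.9, 2.18 and 7.76 FPKM, so that K18+ was highest in both lines. ASPM, NUSAP1 and DLGAP5, which organize spindle microtubules, ranged from 6.39 to 22.7, 21.2 to 52.8 and 3.19 to 12.3 FPKM. For cytokinesis, the ring scaffold anillin (ANLN) stood at 59.7, 58.6 and 38.1 FPKM and 71.0, 11.8 and 34.6 FPKM, and ECT2, which activates RhoA at the division site, ranged from 21.2 to 40.5 FPKM. On mitotic chromosomes, TOP2A, which untangles DNA, stood at 58.5, 72.8 and 68.8 FPKM and 134, 185 and 192 FPKM, and MKI67, which coats chromosomes, at 17.5, 15.2 and 15.8 FPKM and 22.9, 6.40 and 18.6 FPKM. The condensin subunit SMC4 stood at 138, 80.7 and 100.3 FPKM and 57.2, 33.7 and 56.5 FPKM, with all MDA-MB-468 libraries below all HCC70 libraries.

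K18+K14+ against K18+ asks which transcripts accompany keratin 14. In MDA-MB-468 most of the 48 genes had lower values in K18+K14+ cells, while in HCC70 they lay near the level of all genes tested. The median log2 ratio on the log2(FPKM + 1) scale was -0.68 in MDA-MB-468 against -0.17 for all genes tested, and -0.13 in HCC70 against -0.15 for all genes, so that relative to all genes the medians were -0.51 and 0.01, and without the minimum of 1 FPKM -0.68 and -0.12. Without that minimum only the median of all genes moved, and the medians of the 48 genes stayed the same. Single genes ranged from -3.70 (CENPF) to 0.96 (TACC3) in MDA-MB-468 and from -0.90 (CENPE) to 0.71 (CCNB1) in HCC70. Fewer dividing cells and less of these RNAs per cell cannot be told apart in sorted bulk libraries. Of the 48 genes, 35 were lower in MDA-MB-468 (58.1% of all genes) and 32 in HCC70 (64.7% of all genes). Lower in both lines were 27, or 56.2%, against 43.7% of all genes, and higher in both were 8, or 16.7%, against 20.2%. A length trend taken out gave 31 and 5 (50.8% and 14.7% of all genes). Quantile normalization, which moved the median of all genes to 0.00 in both lines, gave 18 and 8 (30.7% and 31.3% of all genes), with medians of -0.59 in MDA-MB-468 and 0.03 in HCC70.

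No gene passed the test between K18+K14+ and K18+. With limma and Benjamini-Hochberg adjustment over all genes 0 of the 48 had an adjusted p under 0.05, as did 0% of all genes, and the smallest adjusted p of the 48 was 0.855. At an unadjusted p under 0.05 there were 3, CENPE, CENPF and HMMR, all lower, against 3.44% of all genes in either direction and 2.88% lower. In a limma fit of the 4 libraries of K18+ and K18+K14+ alone 0 of the 48 passed, with a smallest adjusted p of 0.303. There 13 of the 48 had an unadjusted p under 0.05, and the share of all genes in that fit is not given here. Without the MDA-MB-468 library labelled K18+Vim+ 0 of the 48 passed, against 0% of genes higher and 0.00822% lower. CENPE had a fitted difference of -1.82 ± 0.54 (limma adjusted p = 0.855; SE, n = 2 per population). That of CENPF was -2.03 ± 0.79, nearly all of it from MDA-MB-468, where the log2 ratio was -3.70 against -0.37 in HCC70. HMMR differed by -1.27 ± 0.50, and its log2 ratio was -2.02 in MDA-MB-468 and -0.52 in HCC70. The sum of the 4 basal markers was 275 FPKM in HCC70 K18+ and 450 FPKM in K18+K14+, and in MDA-MB-468 it was 530 and 1268 FPKM. It includes the sort antigen KRT14 (15.3 and 48.6 FPKM in HCC70, 47.8 and 279 FPKM in MDA-MB-468). TP63 was lower in K18+K14+ of HCC70 (0.316 against 0.562 FPKM). The sum of the 7 luminal markers also rose, from 3401 to 4676 FPKM in HCC70 and from 4030 to 7146 FPKM in MDA-MB-468. Of these, EPCAM and CDH1 were lower in K18+K14+ of both lines. The part of either sum in these values was not tested.

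The counts by role stand beside 43.7% of all genes lower and 20.2% higher in both lines. Genes of spindle and midzone were lower in K18+K14+ of both lines in 6 of 7 cases, the median being -1.20 in MDA-MB-468 and -0.26 in HCC70. TACC3, which stabilizes spindle microtubules, was the exception, at 77.6 against 59.2 FPKM and 247 against 126 FPKM. Of 7 centromere and kinetochore genes 5 were lower in both lines and 1, CENPN, higher. Of 7 kinesins 5 were lower and 0 higher in the 2 lines alike (medians -0.20 and -1.07). Only the shortest, KIF2C (2879 bases), was higher in MDA-MB-468, and the others had 3201 to 7274 bases. Among all genes of 3010 to 12678 bases, 70.0% were lower in MDA-MB-468 and 72.5% in HCC70. The part of length in the counts by role was not tested. Both cytokinesis genes were lower in both lines, ECT2 at 26.8 against 40.5 FPKM and 21.2 against 31.9 FPKM. The genes of the mitotic switch were evenly spread, with 3 of 8 higher and 3 lower in both lines. FOXM1 was among the higher. Genes were named by the smaller of their ratios in HCC70 and MDA-MB-468, largest first, and by this rule the higher genes were UBE2C (0.55 and 0.88), TACC3 (0.38 and 0.96), FOXM1 (0.33 and 0.61), TOP2A (0.31 and 0.46) and CENPN (0.70 and 0.30). The corresponding lower genes were CENPE (-0.90 and -2.75), SMC4 (-0.77 and -0.75), MAD2L1 (-0.86 and -0.73), ECT2 (-0.58 and -0.57) and HMMR.

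**Figure D2:**
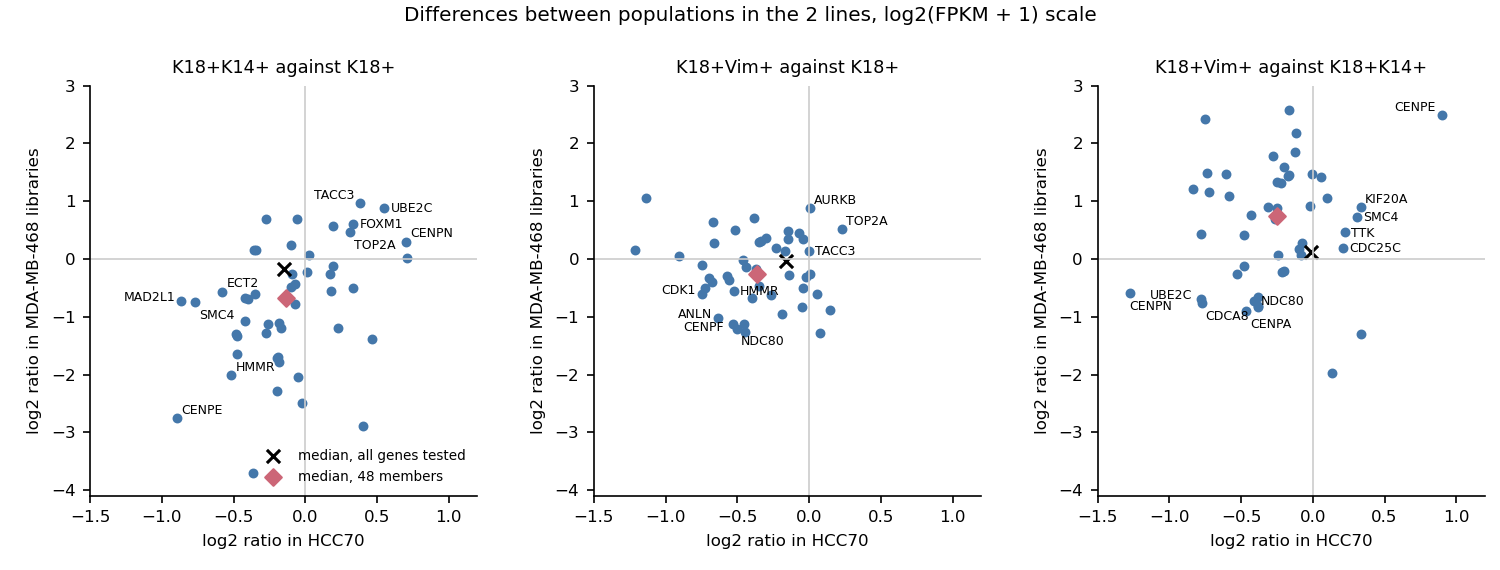
Log2 ratios of the 48 genes between populations, HCC70 on the x axis and the MDA-MB-468 libraries on the y axis (log2(FPKM + 1) scale), with the diamond at the median of the 48 genes and the cross at that of all genes tested. In the left panel the diamond lies at -0.13 and -0.68 and the cross at -0.15 and -0.17; in the other panels the y axis uses the MDA-MB-468 library labelled K18+Vim+.

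Transcript length was considered because FPKM from fixed cells can differ with it. The 48 transcripts span 613 bases (CKS2) to 12678 bases (MKI67), with a median of 2999 bases against 3060 bases over 12409 tested genes with a length. Longer genes had lower K18+K14+ to K18+ ratios. Across the 48 genes, which share the same libraries, Spearman's rho between length and log2 ratio was -0.416 in MDA-MB-468 and -0.366 in HCC70, against -0.324 and -0.242 across all genes. In MDA-MB-468 the 24 shorter genes (up to 2988 bases) had a median of -0.26, where all genes of that length range had 0.06, and the 24 longer genes (3010 bases or more) had -1.12 against -0.40. In HCC70 the medians were -0.02 against -0.06 for the shorter and -0.19 against -0.23 for the longer. The 48 genes thus lay below genes of like length in MDA-MB-468 in both length ranges and level with them in HCC70. With the length trend taken out, the medians relative to all genes were -0.46 in MDA-MB-468 and 0.01 in HCC70. Length did not order all of them. TOP2A (5758 bases) had a log2 ratio of 0.46 in MDA-MB-468, whereas NUF2 (1969 bases), part of the microtubule-binding NDC80 complex, had -2.05.

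**Figure D3:**
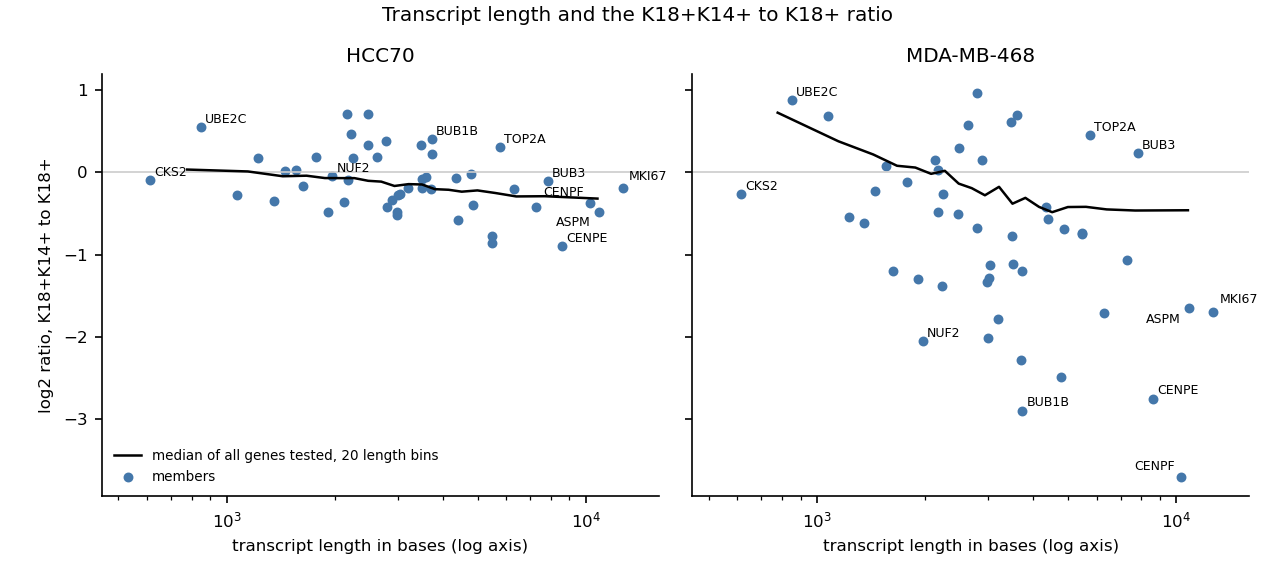
Log2 ratio of K18+K14+ to K18+ (y axis, log2(FPKM + 1) scale) against transcript length in bases (log x axis), with points for the 48 genes and a line through the medians of all genes tested in 20 length bins. In MDA-MB-468 most points lie below the line, TACC3 at 0.96 and CENPF at -3.70 marking the ends.

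In the complexes below, whose partners were chosen after values were seen, the transcripts did not keep 1 ratio across the libraries. The NDC80 complex joins NDC80, NUF2, SPC24 and SPC25. NUF2 stood at 39.2, 37.9 and 34.9 FPKM in HCC70 and 31.4, 6.84 and 34.5 FPKM in MDA-MB-468. SPC24, which is not among the 48 genes and was picked after its values were seen, stood at 29.6, 28.0 and 21.9 FPKM and at 58.6, 214 and 55.2 FPKM. SPC25 stood at 11.9, 9.08 and 7.12 FPKM and 19.2, 12.2 and 23.6 FPKM. For MDA-MB-468, the K18+K14+ library thus had SPC24 as the highest and NUF2 the lowest of its line, although their transcripts are of like length (2315 and 1969 bases), and the HCC70 libraries show no such split. In the passenger complex of the same library INCENP stood at 2.13 against 14.2 FPKM in K18+ and BIRC5 at 47.6 against 31.7 FPKM, and HCC70 had a smaller difference of the same direction, 6.72 against 7.86 FPKM and 14.8 against 12.9 FPKM. The INCENP transcript (3698 bases) is longer than that of BIRC5 (2630 bases). AURKB and CDCA8 were lower in MDA-MB-468 K18+K14+, at 45.3 against 66.6 FPKM and 22.0 against 31.7 FPKM. In HCC70 K18+K14+ they were higher, at 56.7 against 49.9 FPKM and 21.1 against 16.6 FPKM. For cyclin B1 and CDK1 the ratio differed between K18+K14+ and K18+ in both lines. In MDA-MB-468 cyclin B1 stood at 113 against 112 FPKM, in HCC70 at 88.97 against 54.1 FPKM, and CDK1 at 41.6 against 104 FPKM and at 45.6 against 64.2 FPKM. These are single libraries, and no test of the ratios was made.

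K18+Vim+ against K18+ asks which transcripts accompany vimentin. In HCC70 41 of the 48 genes had lower values in K18+Vim+ cells, against 64.5% of all genes. In the libraries labelled MDA-MB-468 29 were lower, against 52.0% of all genes. The median log2 ratio was -0.37 in HCC70 against -0.16 for all genes, and -0.26 in MDA-MB-468 against -0.04. Lower in both lines were 25 of 48 (52.1%, against 33.9% of all genes) and higher in both were 3 (6.25%, against 16.5%), and after quantile normalization 20 and 6 (24.3% and 26.6% of all genes). By the same rule the lower genes were ANLN (-0.63 in HCC70 and -1.02 in MDA-MB-468), CDK1 (-0.74 and -0.61), CENPF (-0.53 and -1.13), HMMR (-0.52 and -0.55) and NDC80 (-0.50 and -1.21). Higher were TOP2A (0.23 and 0.52), AURKB (0.01 and 0.88) and TACC3 (0.00 and 0.14), of which only TOP2A differed by more than 0.1 in HCC70. DLGAP5 had the lowest ratio of HCC70, at 4.73 against 12.3 FPKM, and MAD2L1 the next, at 4.43 against 11.0 FPKM. In the libraries labelled MDA-MB-468 MAD2L1 was the highest, at 39.3 against 18.5 FPKM, and CDC25B the lowest, at 18.0 against 45.4 FPKM.

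No gene passed between K18+Vim+ and K18+. The count was 0 of 48 with limma (0% of all genes), the smallest adjusted p was 0.863, and 0 of the 48 had an unadjusted p under 0.05, against 4.27% of all genes. The fitted difference of NDC80 was -0.86 ± 0.39 and that of CDK1 -0.68 ± 0.43 (SE, n = 2 per population, limma adjusted p = 0.863 for each). Without the MDA-MB-468 library labelled K18+Vim+ 0 of the 48 passed again, against 0% of all genes in each direction. Without the HCC70 K18+Vim+ library 0 of the 48 passed, whereas 4.47% of all genes were called higher and 7.42% lower, in a fit where the library that went against its label alone stood for the population. The sum of the 6 mesenchymal markers was 139 against 64.8 FPKM in HCC70, and its part in the lower values there was not tested. Most of that sum was VIM, the sort antigen (54.8 against 13.4 FPKM), and FN1 (81.6 against 50.1 FPKM). ZEB1 (1.51 against 0.511 FPKM) and SPARC (0.658 against 0.214 FPKM) were higher, ZEB2 (0.363 against 0.51 FPKM) was lower, and CDH2 was at the floor.

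K18+Vim+ against K18+K14+ uses the same libraries again, so it is no independent evidence. Here HCC70 and the MDA-MB-468 libraries went apart. The MDA-MB-468 side uses the library labelled K18+Vim+, which went against its label, so this cannot be read as a difference between the lines. The median log2 ratio was -0.25 in HCC70, against -0.02 for all genes, and 0.74 in the MDA-MB-468 libraries, against 0.12. Higher in both lines were 7 of 48 (25.6% of all genes) and lower in both were 12 (23.7% of all genes). The lower genes included CENPN, at 20.7 FPKM where HCC70 K18+K14+ had 51.5 FPKM and at 44.4 FPKM where MDA-MB-468 K18+K14+ had 67.3 FPKM, and UBE2C, at 74.1 against 128 and 215 against 348 FPKM. CDCA8, NDC80 and CENPA were the other lower genes under the naming rule, and CENPE, KIF20A, SMC4, TTK and CDC25C the higher ones. In HCC70, 51.7% of all genes and in MDA-MB-468 45.5% of all genes were lower, while the 48 genes gave 39 and 14. With limma 0 of 48 passed (0% of all genes, smallest adjusted p of the 48 0.682), and the 1 gene with an unadjusted p under 0.05 was CENPE, which was higher (5.46% of all genes in either direction, 2.59% higher). The fitted difference, with n = 2 per population, was 1.69 ± 0.54 (SE; limma adjusted p = 0.682). With the HCC70 K18+Vim+ library left out, 2 of the 48 passed, CDC25B at -1.79 (limma adjusted p = 0.0414) and MAD2L1 at 1.81 (limma adjusted p = 0.0269), while 7.28% of all genes were called higher and 8.28% lower. That call rests on the MDA-MB-468 library labelled K18+Vim+ alone, and without that library 0 of the 48 passed (0.0329% of genes higher and 0% lower).

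MDA-MB-468 against HCC70 is the comparison in which genes passed. With limma, BIRC5, TOP2A and UBE2C were higher in MDA-MB-468 at an adjusted p under 0.05, which is 3 of 48 (6.25%) against 4.54% of all genes, and 0 were lower, against 7.68% of all genes. The fitted log2 difference of BIRC5 was 1.58 ± 0.32 (SE, n = 3 per line, limma adjusted p = 0.0313), that of UBE2C 1.35 ± 0.34 (limma adjusted p = 0.0496) and that of TOP2A 1.33 ± 0.33 (limma adjusted p = 0.048). UBE2C did not pass after length correction, where BIRC5, BUB3, TACC3 and TOP2A did, nor with a pseudocount of 5. The 3 libraries of a line are its sorted populations, so n = 3 counts populations, not cultures. At an unadjusted p under 0.05, 13 genes were higher (15.1% of all genes) and 1, SMC4, lower (18.0% of all genes). No overlap between the lines was seen for 14 genes with all MDA-MB-468 libraries higher (20.1% of all genes) and for 3 with all lower (21.0% of all genes). The 14 were AURKA, BIRC5, BUB1, BUB3, CCNA2, CCNB1, CCNB2, CKS2, NDC80, PTTG1, SPC25, TACC3, TOP2A and UBE2C, and the 3 were SMC4, NUF2 and KIF23. PTTG1 had the largest fitted difference of the higher genes, 1.63 ± 0.42 (limma adjusted p = 0.0531), and SMC4 the largest of the lower, -1.10 ± 0.33 (limma adjusted p = 0.0719).

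With K18+ and K18+K14+ alone, 18 genes had both MDA-MB-468 libraries above both HCC70 libraries (30.4% of all genes) and 4 below (32.2% of all genes), PLK1 joining SMC4, NUF2 and KIF23. Without the MDA-MB-468 library labelled K18+Vim+ 9 of the 48 genes passed. These were PTTG1 (2.01, limma adjusted p = 0.00634), BIRC5 (1.43), TACC3 (1.37), UBE2C (1.27), TOP2A (1.26), NDC80 (1.24), AURKA (1.16) and BUB3 (1.12), all higher, and SMC4 (-1.25, limma adjusted p = 0.0324), lower. The background rose with them, to 12.4% of genes higher and 16.8% lower. Without the HCC70 K18+Vim+ library 8 passed, the same genes but for UBE2C, against 11.1% and 14.8%. Leaving out any K18+ or K18+K14+ library left 0. The median difference of the 48 genes followed the population, at 0.67 in K18+, 0.02 in K18+K14+ (-0.13 with the length trend taken out) and 0.66 in K18+Vim+, against -0.02, -0.07 and 0.09 for all genes. The K18+Vim+ value uses the MDA-MB-468 library that went against its label. KIF20A had the largest ratio of K18+, 29.7 against 7.96 FPKM, and was level in K18+K14+, 7.88 against 6.88 FPKM.

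**Figure D4:**
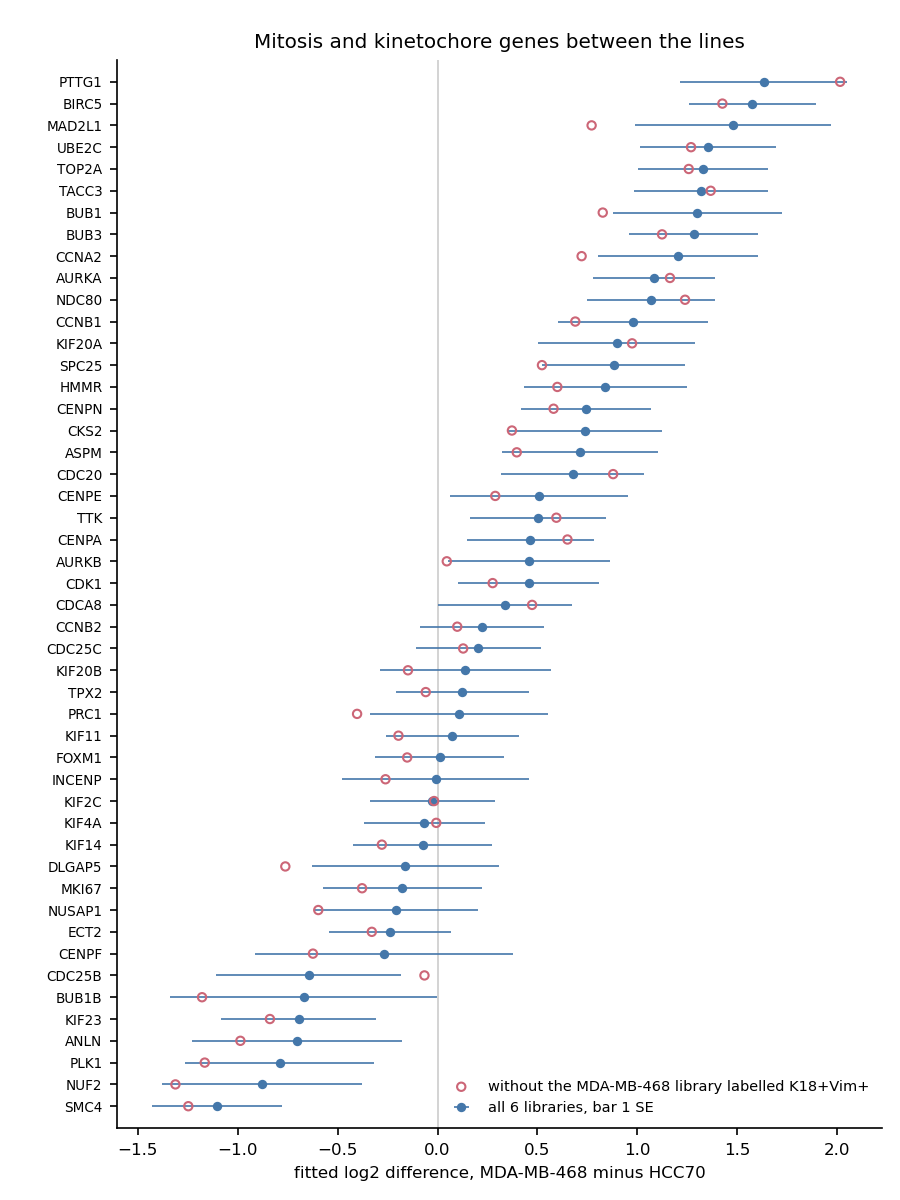
Fitted log2 difference of each of the 48 genes, MDA-MB-468 minus HCC70 (x axis, log2(FPKM + 1) scale), with bars of 1 SE over all 6 libraries and open circles for the fit without the MDA-MB-468 library labelled K18+Vim+. PTTG1 (1.63) and BIRC5 (1.58) lie at the upper end and SMC4 (-1.10) at the lower end.

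Other genes of the same machinery were read in lists beside the 48. None passed between populations. The counts below for K18+K14+ against K18+ stand beside 43.7% of all genes lower and 20.2% higher in both lines. Of 15 genes of the APC/C and its inhibitors, 11 (73.3%) were lower in K18+K14+ of both lines and 2 higher, UBE2S and ANAPC11. UBE2S, which extends ubiquitin chains on APC/C targets as UBE2C starts them, stood at 29.4, 50.1 and 27.3 FPKM in HCC70 and 44.2, 189.7 and 66.7 FPKM in MDA-MB-468. Of 17 genes of condensin, cohesin and separase 11 (64.7%) were lower and 2 higher in the 2 lines alike (medians -0.26 and -1.06). The cohesin subunit RAD21 stood at 34.9 against 60.9 FPKM and 14.5 against 29.7 FPKM, and SMC3 at 4.94 against 9.15 FPKM and 0.584 against 6.67 FPKM. Of 33 other centromere and kinetochore genes 17 (51.5%) were lower in both lines and 6 higher, among the latter the checkpoint protein MAD1L1 at 56.8 against 30.5 FPKM and 72.9 against 32.1 FPKM. Of 7 MuvB and DREAM genes 3 (42.9%) were lower and 2 higher, and MYBL2 stood at 54.5 against 49.5 FPKM and 63.8 against 42.3 FPKM. Of 25 other G2 and M genes 8 (32%) were lower and 5 higher. The 46 genes of DNA replication, which act a phase earlier, were split, with 17 (37.0%) lower and 15 (32.6%) higher in both lines and medians of -0.17 in MDA-MB-468 and 0.03 in HCC70.

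In K18+Vim+ against K18+ the median of all genes was -0.16 in HCC70, and the lists ran from -0.21 for MuvB and DREAM to -0.50 for condensin, cohesin and separase. Relative to all genes the MuvB list (-0.05), the APC/C list (-0.07) and the other G2 and M genes (-0.09) were near level and the condensin list lay at -0.34. In the libraries labelled MDA-MB-468, where all genes had -0.04, the medians of 5 lists were above 0. The APC/C list was highest at 0.41, the DNA replication genes had 0.32, and the condensin list was at -0.06. These values use the MDA-MB-468 library labelled K18+Vim+, which went against its label. Between the lines 9 of the 143 genes of these lists (6.29%) passed, all higher in MDA-MB-468, against 4.54% of all genes called higher and 7.68% lower. The largest were CENPW, a histone-fold protein of the inner kinetochore, at 2.35 ± 0.32 (SE, n = 3 per line, limma adjusted p = 0.0141), and the flap endonuclease FEN1 at 2.24 ± 0.41 (limma adjusted p = 0.0265). CDCA2, TYMS, CDC25A, SKA2, MIS18A, CDCA5 and CHAF1B were the others, and 0 passed as lower.

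The mean log2 level of the 48 genes ran from 4.22 in HCC70 K18+Vim+ to 5.13 in MDA-MB-468 K18+, against 3.65 and 3.73 over all tested genes. ASPM (Pearson r = 0.99), HMMR (0.97), CDK1 (0.96) and BUB1 (0.92) followed this mean most closely over the 6 libraries, which share their depth and normalization with it. The mean includes each of these genes itself, and the libraries include the one that went against its label. CDC25B (-0.68), FOXM1 (-0.36), SMC4 (-0.18) and KIF2C (-0.03) ran against it or apart from it. Of the tested genes outside the 48, the closest were DDIAS (0.994), CCDC93 (0.991), SNRNP48 (0.991), LMNB1 (0.989) and TMEM126B (0.989). LMNB1, which encodes lamin B1 of the nuclear envelope, stood at 14.3, 13.3 and 8.48 FPKM in HCC70 and 29.7, 10.8 and 27.7 FPKM in MDA-MB-468. With 6 points these correlations are a description.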

How the data were processed

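RNA was measured in 6 libraries, 1 for each of 3 sorted populations of 2 cell lines. Per the submitters' processing notes, reads were aligned with TopHat2 to GRCh37. For the counting tool and annotation, nothing is given in the sources used here. The authors deposited FPKM values with a floor of 0.1 FPKM, and the depth is unknown. Of 18807 rows, 7 blank ones were left out, and of 5 IDs with 2 rows the higher was kept, which left 18795 genes, 18732 with a symbol.

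Genes whose mean reached 1 FPKM (12454) were taken as log2(FPKM + 1), which understates differences of low genes, and entered a limma fit (3.58.1, R 4.3.3; trend, population and cell line as terms, 2 residual degrees of freedom), which was tested on simulated data. The simulated data had independent noise, no difference between the lines and the same shift in both K18+K14+ libraries. They therefore cannot show how the fit behaves where the lines disagree, as here. The labels pair the populations by line. P-values were adjusted by Benjamini-Hochberg over all tested genes, threshold 0.05. Lengths are those of 1 protein-coding GENCODE 29 transcript of GRCh38 per gene, used as lengths only. It was the longest of the best APPRIS rank (principal before alternative), or the longest where no rank is given. A lowess over 0.3 of the genes gave the length trend. Promoters are from RefSeq (GRCh38.p14). Alternatives are given at the end.

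The members and lists were chosen with earlier results of these data known. Genes were ranked for naming by the smaller of their ratios in both lines (up to 5 per direction), between lines by the largest difference without overlap, and in the lists likewise with up to 3. Complex partners were chosen after values were seen. UHRF1 was not matched.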

Additional observations from a re-analysis of the deposited data

Results flagged for a closer look

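Between K18+K14+ and K18+ the median log2 ratio of the 48 genes relative to all genes was -0.51 in MDA-MB-468 and 0.012 in HCC70. The HCC70 value is close to 0. Without the filter on low values the relative medians were -0.68 and -0.12. The medians of the 48 genes themselves did not move, and only that of all genes did, to 0 in MDA-MB-468 and -0.0095 in HCC70. Between K18+Vim+ and K18+K14+ the corresponding medians were -0.23 in HCC70 and 0.62 in the MDA-MB-468 libraries. Among single genes the checkpoint gene MAD2L1 differed by -1.14 between K18+Vim+ and K18+ in HCC70 and by 1.05 in the MDA-MB-468 libraries, the sole gene of the 48 with ratios past 1 in opposite directions. The last of these values and those of the second comparison use the MDA-MB-468 library labelled K18+Vim+, which went against its label. With 1 library for each population and line, none of these differences between the lines was tested.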

How the results depend on the processing

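Of the values recomputed under the alternatives, 120 moved by less than 1 SD or, for counts, by at most 1.5 times, and 29 moved further. The SD is that between the lines, or between populations for line differences. There were 2 medians near 0 that changed sign: K18+K14+ against K18+ in HCC70, from -0.13 to 0.03 after quantile normalization, and MDA-MB-468 against HCC70 in K18+K14+, from 0.02 to -0.13 after length correction. The number of the 48 genes past the threshold between the populations was 0 under every alternative with limma, the fit without the block for cell line included, except for 2 in K18+Vim+ against K18+K14+ without the HCC70 K18+Vim+ library (range 0 to 2 over the left-out libraries). No other call changed without that block. For MDA-MB-468 against HCC70 the count was 5 without the trend, 6 with a minimum of 5 FPKM, 6 after quantile normalization, 10 with the 4 libraries of K18+ and K18+K14+ alone and 0 without a filter, and 0 to 9 when each library was left out in turn. It was 0 without any of the K18+ or K18+K14+ libraries, 8 without HCC70 K18+Vim+ and 9 without the MDA-MB-468 library labelled K18+Vim+. For the same comparison the count was 4 after length correction (BIRC5, BUB3, TACC3 and TOP2A) and 3 with a pseudocount of 5 (BIRC5, BUB3 and TOP2A). A fit of 5 libraries has 1 residual degree of freedom.

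The median of the 48 genes in K18+Vim+ against K18+ was -0.17 in MDA-MB-468 and -0.27 in HCC70 with a pseudocount of 5, and -0.13 and -0.20 after quantile normalization. The correlation with length in K18+K14+ against K18+ was -0.353 in MDA-MB-468 and -0.322 in HCC70 with a minimum of 5 FPKM, and -0.345 and -0.312 after quantile normalization. In K18+Vim+ against K18+ of HCC70 it was -0.0098 with a pseudocount of 5, -0.088 with the higher minimum and -0.0024 after quantile normalization. In K18+Vim+ against K18+K14+ of MDA-MB-468 it was 0.324, 0.341 and 0.341 in that order. Under alternatives chosen after seeing the data, genes higher in both lines numbered 5 after length correction in K18+K14+ against K18+, and 1 after length correction and 6 after quantile normalization in K18+Vim+ against K18+. The cause was not tested. The number of libraries, and a depth that is not known, limit all of these values.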
